A study of Mus musculus with 10 samples.

Results

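Interferon-stimulated genes are switched on when interferons bind their receptors on a cell. Type I interferons act through JAK1 and TYK2 and the complex ISGF3, which contains STAT2 and IRF9 and binds a promoter element called the ISRE. Interferon-gamma acts through JAK1 and JAK2 and a different element, the GAS, and it induces the guanylate-binding proteins and the immunity-related GTPases that attack the vacuoles of intracellular microbes. In liver these genes are expressed at a low level without infection, in hepatocytes as well as in macrophages and endothelial cells, and glucocorticoids acting on macrophages are known to restrain part of the response.

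The 36 interferon-stimulated genes described here were chosen by symbol, to set type I targets beside interferon-gamma targets, and all 36 were among the 19764 genes of the count table. They comprise 26 mainly type I targets, 9 interferon-gamma GTPase genes (Gbp2, Gbp3, Gbp5, Gbp6, Gbp7, Iigp1, Igtp, Irgm1 and Irgm2) and Irf1, which both kinds of interferon induce and which was kept apart. Whole-liver polyadenylated RNA was compared between 5 GRflox libraries, from female mice with a floxed glucocorticoid receptor gene and no Cre, and 5 GRMAC libraries, from female littermates that carried the same floxed gene and LysM-Cre+/-. All mice were fasted for 8 h from ZT12, the onset of the active phase, and no fed, infected or interferon-treated group was part of the design. LysM-Cre is driven from the Lyz2 locus in macrophages, monocytes and neutrophils, and the controls carried no Cre, so receptor loss and any effect of the Cre allele cannot be told apart. The labels number the libraries but do not say that each is a separate animal, so p-values measure the spread between these libraries.

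Library totals were 25697931 to 27692528 counts in GRflox and 23258884 to 26116916 in GRMAC. Nr3c1, the receptor gene, was at 63.8 to 81.2 CPM (counts scaled to library size) in GRflox and 74.7 to 94.0 CPM in GRMAC, a level that whole liver sets and that does not check a deletion in myeloid cells. Lyz2, the locus that carries Cre, had a mean of 32.3 ± 5.51 CPM for GRflox and 21.1 ± 5.21 CPM for GRMAC (SD, n = 5 each; log2 fold change −0.62 ± 0.16 SE; edgeR, adjusted p = 0.114). Liver identity was clear from the hepatocyte markers, whose summed level was 136684 to 154246 CPM in GRflox and 136384 to 159667 CPM in GRMAC. Every member passed the filter on low counts, and member counts ranged from 24 to 9531 per library. In bulk tissue, fewer cells of a type and less RNA per cell cannot be told apart.

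The promoter elements through which interferons act were visible in the members' own sequences. RefSeq promoter windows of 300 bases (250 before and 50 after the transcription start, build GRCm38.p6) were at hand for 26 of the 36 members. The ISRE core was searched as GAAA, then NN, then GAAA, and the GAS core as TTCNNNGAA, each on both strands, and matches of the 2 motifs were allowed to overlap, which happened once. An ISRE core was present in 16 of the 26 members (61.5%), against 3.99% of all 27025 genes with a window. A GAS core was present in 8 of the 26 (30.8%), against 9.55% of all genes. By class, 9 of 18 type I targets and 7 of 7 interferon-gamma GTPase genes held an ISRE core, and 3 of the 18 and 4 of the 7 held a GAS core. Irf1 had a GAS core and no ISRE core, and the windows of Irf7 and Oasl2 held neither, which says only that these letters are not in those windows.

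The stretches below come from the members whose levels are given library by library, and they show where these elements lie before the start. Capitals mark the ISRE and GAS matches, with 25 bases on either side where the window allowed. Each is written 5′ to 3′ on the strand of its gene. In Ifit3 a pair of ISRE cores began 156 and 122 bases before the start, and in Bst2 overlapping ISRE cores at 130 and 124 bases followed a GAS core at 136 bases. Gbp5 held a GAS core at 245 and at 52 bases and an ISRE core at 165 bases. The ISRE core of Gbp2 lay at 59 bases and that of Stat2 at 222 bases, while Irf1 had a GAS core at 90 bases and Ifit2 one at 241 bases. Distances are from the start that the window is built on, which for Stat2 lies 78 bases and for Bst2 35 bases from the gene start in the authors' count table, and for the other 5 is the same base. The coordinates are chr19:34583348-34583441 (plus strand) for Ifit3, chr19:34550444-34550486 (plus) for Ifit2, chr10:128270251-128270310 (plus) for Stat2, chr11:53769899-53769957 (plus) for Irf1, chr3:142620579-142620638 (plus) for Gbp2, chr8:71537562-71537633 (minus) for Bst2 and chr3:142496684-142496915 (plus) for Gbp5.
Ifit3: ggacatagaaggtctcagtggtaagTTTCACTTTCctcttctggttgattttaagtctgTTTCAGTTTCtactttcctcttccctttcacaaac
Ifit2: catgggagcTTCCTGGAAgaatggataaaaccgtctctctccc
Stat2: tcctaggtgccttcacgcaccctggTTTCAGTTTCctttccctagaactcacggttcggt
Irf1: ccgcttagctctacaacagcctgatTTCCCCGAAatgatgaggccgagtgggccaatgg
Gbp2: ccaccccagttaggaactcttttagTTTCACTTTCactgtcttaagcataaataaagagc
Bst2: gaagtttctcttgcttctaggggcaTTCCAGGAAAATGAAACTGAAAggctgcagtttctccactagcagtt
Gbp5: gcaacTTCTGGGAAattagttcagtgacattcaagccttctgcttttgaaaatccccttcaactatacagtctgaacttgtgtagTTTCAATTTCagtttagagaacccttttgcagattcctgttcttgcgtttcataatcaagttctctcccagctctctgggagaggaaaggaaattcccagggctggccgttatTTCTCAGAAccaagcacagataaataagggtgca

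No member passed the test across all genes in either direction. The test was edgeR's quasi-likelihood test with Benjamini-Hochberg adjustment over 12558 genes and a threshold of 0.05, by which 0.175% of all genes were called. The members nonetheless leaned upward: 27 of 36 had a positive log2 fold change of GRMAC against GRflox, where 50.2% of all tested genes did. At an unadjusted p under 0.05, 6 members were higher in GRMAC (Irf7, Oasl2, Ifit3, Ifit2, Mx1 and Iigp1), or 16.7%, against 8.58% of all genes, and 1 was lower (Stat2), or 2.78%, against 7.75%. The median log2 fold change was 0.13 over the members and 0.00103 over all tested genes. Members, and the further lists below, were chosen with earlier results of these data known, so such shares are a description only. In DESeq2, fitted here as an alternative, 3 members passed as higher (Irf7, adjusted p = 0.0107; Oasl2, adjusted p = 0.0171; Ifit3, adjusted p = 0.0393), where 1.94% of all genes did, and none passed as lower, where 1.62% did. With limma-voom no member passed. The authors' deposited table has the same 3 past the threshold, with adjusted p = 0.0115 for Irf7, adjusted p = 0.0177 for Oasl2 and adjusted p = 0.0401 for Ifit3, where 1.84% of its genes with an adjusted p were called as higher. None of the members passed as lower in the authors' deposited table, where 1.49% of genes did.

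**Figure D1:**
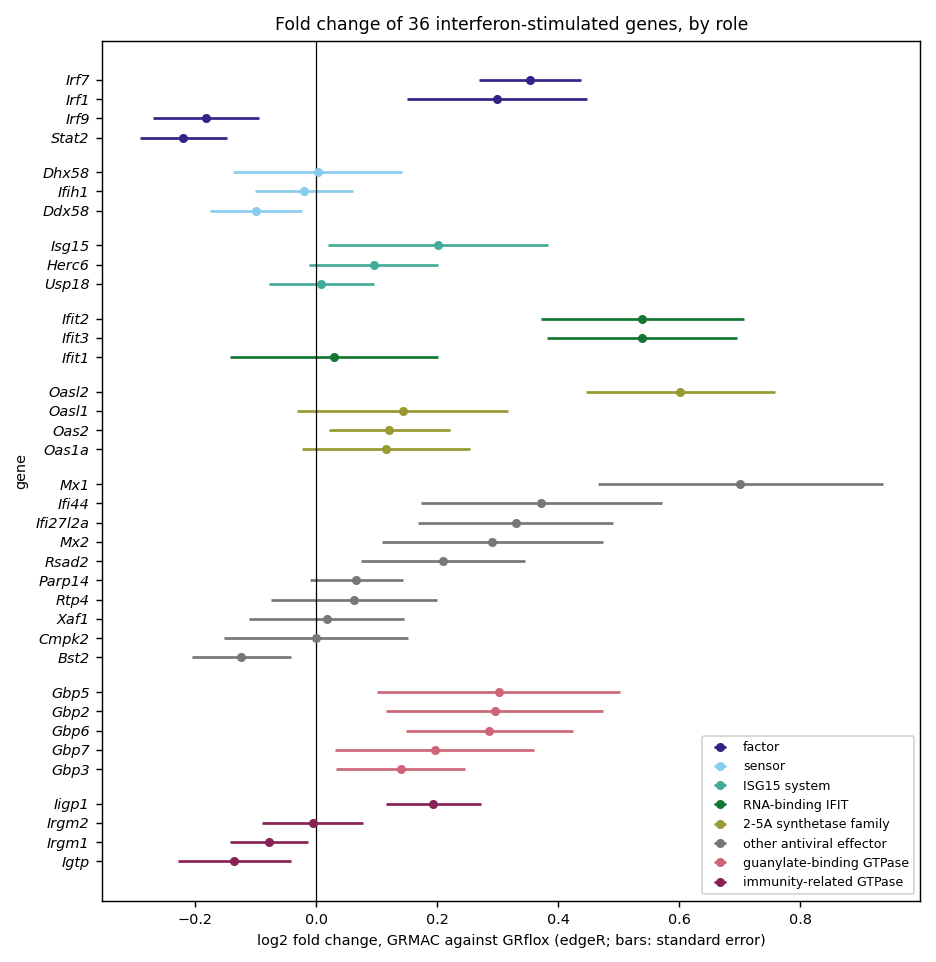
Log2 fold change of GRMAC against GRflox (x axis) for each of the 36 members (y axis), coloured by role, with bars for the standard error. Members run from Stat2 at −0.22 to Mx1 at 0.70; all 5 guanylate-binding GTPase genes lie above 0, and 3 of the 4 immunity-related GTPase genes lie below it.

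The transcription factors of the pathway differed in the sign of their fold changes. Irf7 encodes the factor that amplifies type I interferon production and is itself an interferon target (NM_001252601, mm10 chromosome 7, 141263183 to 141266424). It was at 22.0, 23.2, 19.8, 19.5 and 16.6 CPM in GRflox 1 to 5 and at 24.0, 25.8, 26.3, 25.7 and 27.4 CPM in GRMAC 1 to 5. Every GRMAC library was above every GRflox library, the only member for which this held, where the same is true of 2.05% of all tested genes. No member had every GRMAC library below every GRflox library, as 2.01% of all genes did. Its log2 fold change was 0.35 ± 0.08 (SE; edgeR, adjusted p = 0.0793), and the two-sided exact permutation test gave p = 0.00794, the smallest it can give. Stat2, the subunit that brings the activation domain to ISGF3 (chromosome 10, 128270576 to 128292849), was at 116, 112, 116, 99.5 and 116 CPM in GRflox and at 87.6, 103, 96.9, 86.2 and 108 CPM in GRMAC. The groups overlapped through GRflox 4, the lowest control, which lay below GRMAC 2 and GRMAC 5, while 3 GRMAC libraries were below every control. Its log2 fold change was −0.22 ± 0.07 (edgeR, adjusted p = 0.169; exact permutation p = 0.0238).

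Irf9, the DNA-binding subunit of ISGF3, had a mean of 33.9 ± 3.65 CPM for GRflox and 29.9 ± 3.13 CPM for GRMAC (SD, n = 5 each), a log2 fold change of −0.18 ± 0.09. Both ISGF3 subunits among the members were therefore lower on average while Irf7 was higher, and none of the 3 passed with edgeR. Irf1, an early factor shared by both interferon pathways, was at 19.0, 24.6, 16.4, 24.97 and 26.1 CPM in GRflox and at 27.0, 30.0, 19.8, 31.0 and 28.9 CPM in GRMAC. In 4 of 5 GRMAC libraries it was above every GRflox library, and GRMAC 3 lay among the controls. Its log2 fold change was 0.30 ± 0.15 (edgeR, adjusted p = 0.343).

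The IFIT genes encode proteins that bind viral RNA, and they lie side by side on chromosome 19. Ifit3 (34583529 to 34588982) was at 5.97, 5.002, 5.97, 7.70 and 4.25 CPM in GRflox and at 8.01, 7.93, 6.63, 9.03 and 10.4 CPM in GRMAC, a log2 fold change of 0.54 ± 0.16 (edgeR, adjusted p = 0.132). GRMAC 3 alone fell within the control range. Ifit2 (34550694 to 34576534) was at 2.38, 3.23, 2.40, 3.08 and 2.40 CPM in GRflox and at 3.88, 3.23, 2.98, 4.76 and 4.77 CPM in GRMAC, with the same fold change of 0.54 ± 0.17 (edgeR, adjusted p = 0.153). GRMAC 2 and GRMAC 3 lay within the control range and the other 3 above it. Their neighbour Ifit1 was near 0, with a mean of 4.61 ± 0.785 CPM for GRflox and 4.71 ± 1.15 CPM for GRMAC (0.03 ± 0.17), although its window, like that of Ifit3, held a pair of ISRE cores. Whether Ifit1 differs from its neighbours in response was not tested.

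Oligoadenylate synthetases make the messenger that activates RNase L, and the OAS-like genes Oasl1 and Oasl2 belong to the same family on chromosome 5. Oasl2 (114896934 to 114912245) was at 3.94, 4.74, 4.18, 5.26 and 4.54 CPM in GRflox and at 8.10, 5.12, 5.67, 9.03 and 6.50 CPM in GRMAC. Only GRMAC 2 overlapped the controls, and the 2 highest values were those of GRMAC 4 and GRMAC 1. The log2 fold change was 0.60 ± 0.16 (edgeR, adjusted p = 0.0987; exact permutation p = 0.0159). Its relatives among the members were less far from 0, with 0.14 ± 0.17 for Oasl1, 0.12 ± 0.10 for Oas2 and 0.12 ± 0.14 for Oas1a. Outside the members, Oas3 was further from 0 than Oasl2 (0.84 ± 0.36), at means of 1.04 CPM in GRflox and 1.86 CPM in GRMAC. Oas1g was at 0.28 ± 0.15, Oas1c at 0.05 ± 0.27 and Oas1b at −0.27 ± 0.15. Oasl1, which represses Irf7 translation in mice, spanned 4.64 to 5.59 CPM in GRflox and a wider 3.96 to 7.53 CPM in GRMAC, and its fold change was 0.02 without GRMAC 5.

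Mx1, a dynamin-like GTPase that blocks virus replication (chromosome 16, 97447037 to 97462905), had the highest fold change of any member at a low level. It was at 1.29, 1.28, 0.913, 2.07 and 1.11 CPM in GRflox and at 2.07, 2.04, 1.71, 3.11 and 1.89 CPM in GRMAC. GRflox 4 lay among the GRMAC values, and GRMAC 4 stood above all others. The log2 fold change was 0.70 ± 0.24 (edgeR, adjusted p = 0.176). Its neighbour Mx2 was at 0.29 ± 0.18. Apart from Bst2, the other antiviral effectors covered a range from 0.37 ± 0.20 for Ifi44 and 0.33 ± 0.16 for Ifi27l2a, over 0.21 ± 0.14 for Rsad2 (viperin), 0.07 ± 0.08 for Parp14, 0.06 ± 0.14 for Rtp4 and 0.02 ± 0.13 for Xaf1, to −0.00069 ± 0.15 for Cmpk2, the gene next to Rsad2.

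Bst2, which encodes the virus-tethering membrane protein tetherin, was the most abundant type I target by mean CPM and also per kilobase of transcript. It was at 109.7, 133, 125, 119 and 116 CPM in GRflox and at 107, 114, 131, 94.2 and 108 CPM in GRMAC (−0.12 ± 0.08). The groups overlapped across most of their range, and 3 GRMAC libraries lay below every control.

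The cytoplasmic RNA sensors lay close to 0. Ddx58 (RIG-I) was at −0.10 ± 0.08, Ifih1 (MDA5) at −0.02 ± 0.08 and Dhx58 (LGP2) at 0.00234 ± 0.14. The ISG15 system, in which a ubiquitin-like protein is attached to other proteins by Herc6 and removed by Usp18, had fold changes close to their standard errors or under them: 0.20 ± 0.18 for Isg15, 0.09 ± 0.11 for Herc6 and 0.01 ± 0.09 for Usp18. Without GRMAC 5 the value of Isg15 was 0.05. Usp18, which also blocks the type I receptor, spanned 9.27 to 12.3 CPM in GRflox and 9.96 to 10.8 CPM in GRMAC, so the GRMAC range lay inside the control range.

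**Figure D2:**
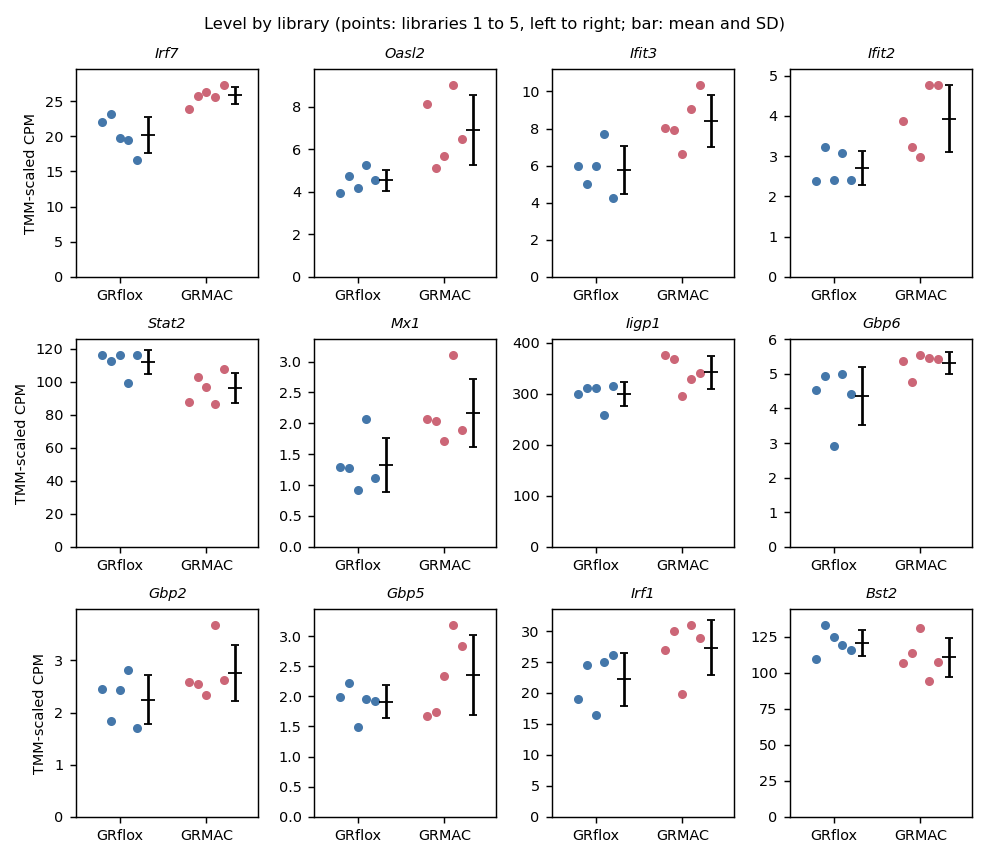
TMM-scaled CPM (y axis, from 0) of 12 members in each library, with GRflox in blue and GRMAC in red, and the mean and SD (n = 5) beside the points. Irf7 is the panel in which no GRMAC library reaches down to a control; Stat2 and Bst2 have lower means in GRMAC.

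Among the interferon-gamma GTPase genes, the guanylate-binding and the immunity-related families had medians of 0.29 and −0.04. All 5 guanylate-binding members had positive fold changes, from 0.14 ± 0.11 for Gbp3 and 0.20 ± 0.16 for Gbp7 to 0.30 ± 0.20 for Gbp5. Of the 4 immunity-related members only Iigp1 was positive, and the others were at −0.14 ± 0.09 (Igtp), −0.08 ± 0.06 (Irgm1) and −0.01 ± 0.08 (Irgm2). None of the 9 passed with edgeR, and the difference between the families was not tested. Igtp, Irgm1 and Irgm2 encode the regulatory immunity-related GTPases that guard host membranes, and Igtp and Irgm2 are neighbours on chromosome 11.

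Iigp1, which encodes an effector GTPase that loads onto parasite vacuoles (chromosome 18, 60376029 to 60392629), was the most abundant GTPase gene by far. It was at 299.6, 311, 310.5, 259 and 314 CPM in GRflox and at 376, 367, 295, 329 and 340.3 CPM in GRMAC. In 4 of 5 GRMAC libraries it was above every control, and GRMAC 3 was below all controls but GRflox 4. The log2 fold change was 0.19 ± 0.08 (edgeR, adjusted p = 0.238; exact permutation p = 0.0556). Per kilobase of transcript Bst2 (146 CPM per kb) and Iigp1 (103 CPM per kb) were the highest of the 34 members with a matched transcript, followed by Stat2 (23.7), Irgm1 (16.7), Igtp (15.1) and Irgm2 (14.3), and Gbp5 was the lowest (0.699). Gbp2 and Gbp5 each lay under 4 CPM in every library.

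Gbp6 (chromosome 5, 105270702 to 105293699) was at 4.53, 4.93, 2.93, 4.99 and 4.43 CPM in GRflox and at 5.39, 4.77, 5.56, 5.46 and 5.43 CPM in GRMAC (0.29 ± 0.14; edgeR, adjusted p = 0.32). It was above every control in 4 of 5 GRMAC libraries. Gbp2 (chromosome 3, 142620663 to 142638008) was at 2.46, 1.84, 2.43, 2.82 and 1.70 CPM in GRflox and at 2.59, 2.54, 2.34, 3.69 and 2.63 CPM in GRMAC (0.30 ± 0.18), with GRMAC 4 alone above the controls. Gbp5 (chromosome 3, 142496934 to 142522344) was at 1.99, 2.22, 1.48, 1.95 and 1.92 CPM in GRflox and at 1.68, 1.73, 2.34, 3.19 and 2.84 CPM in GRMAC (0.30 ± 0.20), so that 2 GRMAC libraries lay within the control range. Without GRMAC 4 the value of Gbp5 was 0.17 and that of Gbp2 also 0.17, and without GRflox 4 that of Gbp7 was 0.10.

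The rest of the guanylate-binding family, in a list of further interferon-gamma targets, also had positive fold changes. The count table held 11 such genes, 5 on chromosome 3 and 6 on chromosome 5, and all 11 were tested and had positive fold changes (median 0.30; 0.63 over the 6 that are not members). None passed with edgeR; 5 had an unadjusted p under 0.05 and 3 did not overlap between the groups, against 8.58% and 2.05% of all genes. Those 3 were Gbp2b, Gbp8 and Gbp11, and Gbp2b passed with edgeR when GRMAC 5 was left out (adjusted p = 0.0498). Gbp2b was at 2.07, 1.73, 1.33, 1.46 and 1.14 CPM in GRflox and at 2.97, 2.89, 2.74, 3.42 and 2.14 CPM in GRMAC (0.87 ± 0.19; edgeR, adjusted p = 0.0649). Gbp8 was at 2.58, 2.52, 3.005, 3.42 and 2.69 CPM in GRflox and at 4.91, 4.27, 3.73, 5.76 and 4.07 CPM in GRMAC (0.68 ± 0.15; edgeR, adjusted p = 0.0649). Gbp11 was at 4.68, 5.34, 3.42, 5.03 and 2.44 CPM in GRflox and at 9.48, 18.3, 5.95, 24.2 and 8.39 CPM in GRMAC (1.67 ± 0.41; edgeR, adjusted p = 0.112), a gene that varied widely among GRMAC libraries. DESeq2 called all 3 (adjusted p = 0.00221, 0.00317 and 0.00606 in that order). Genes of this family are related in sequence, to a degree not compared here. How the authors' counting treated reads that match several copies is not stated, so the value of a single Gbp gene is uncertain.

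**Figure D3:**
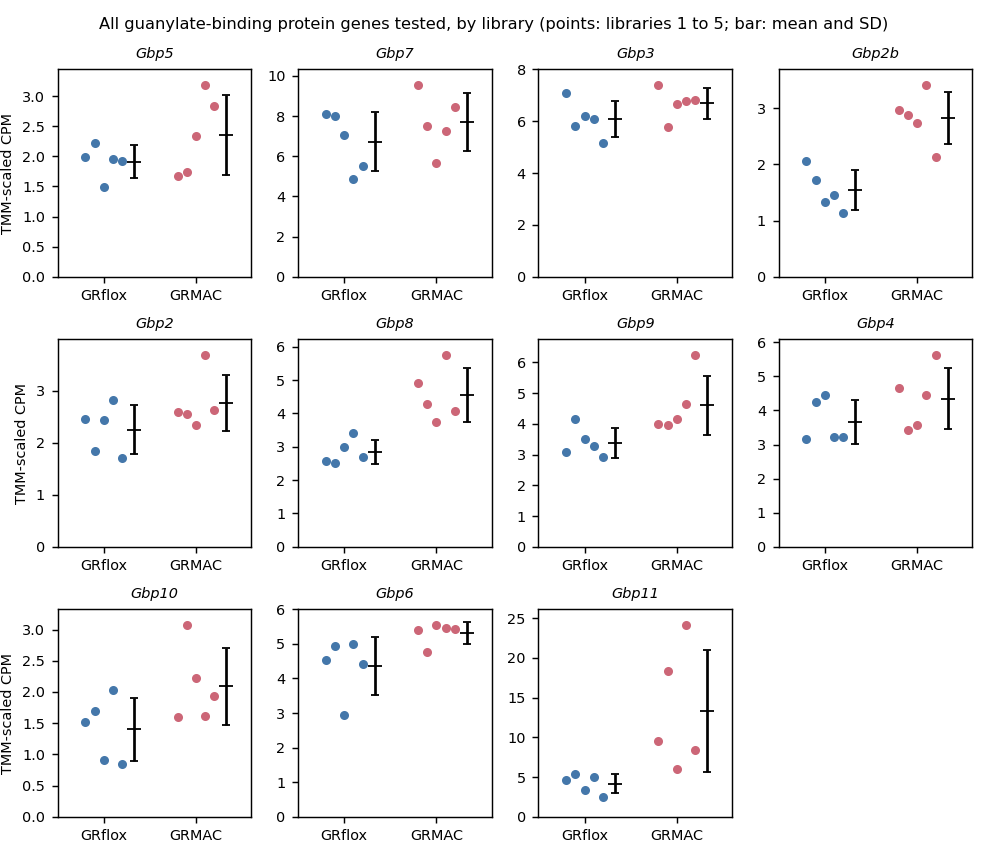
TMM-scaled CPM (y axis, from 0) of the 11 guanylate-binding protein genes by library, GRflox in blue and GRMAC in red, with mean and SD (n = 5). The means are higher in GRMAC in every panel, and Gbp2b, Gbp8 and Gbp11 are the panels whose groups do not overlap.

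Set against each other, the type I targets and the interferon-gamma GTPase genes were not clearly apart. The type I targets had a median log2 fold change of 0.11 (20 of 26 positive) and the GTPase genes one of 0.19 (6 of 9 positive), a difference of −0.09. The means stood the other way, at 0.16 for the type I targets and 0.13 for the GTPase genes, a difference of 0.027. Per library, the difference of the classes' mean centred log2 CPM averaged −0.013 in GRflox and 0.013 in GRMAC, against an SD of 0.09 between libraries of one genotype. Leaving out 1 library at a time moved the difference of the medians between −0.12 and 0.000576, the latter without GRMAC 1. The type I median was 0.04 without GRMAC 5 and was 0.06 without GRMAC 4 and 0.07 without GRflox 5, and the GTPase median was 0.11 without GRMAC 1 and 0.13 without GRflox 5.

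Libraries differed from each other across the members as a group. The mean of log2 CPM, centred per gene over the 10 libraries, was 0.24 in GRMAC 5 and 0.17 in GRMAC 4 for the type I targets, and −0.27 in GRflox 5 and −0.18 in GRflox 3. The remaining 6 libraries lay between −0.08 and 0.05, and there the genotypes were mixed. GRMAC 5 held the highest value of 14 members and GRMAC 4 that of 9, while GRflox 5 held the lowest of 11 and GRflox 3 of 9. The guanylate-binding genes ordered the same 4 libraries in a similar way (0.30 in GRMAC 4, 0.22 in GRMAC 5, −0.24 in GRflox 3 and −0.28 in GRflox 5). The immunity-related GTPase genes did not: their lowest values were −0.19 in GRflox 4 and −0.17 in GRMAC 3, and both genotypes reached 0.09.

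**Figure D4:**
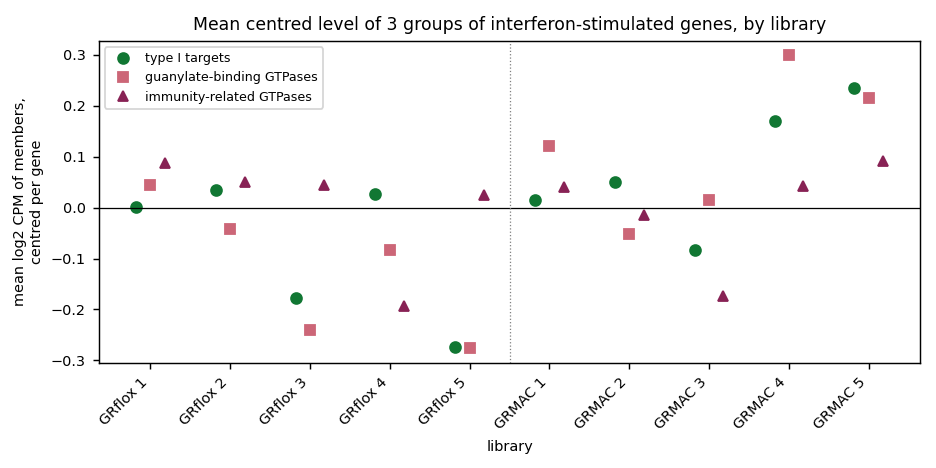
Mean centred log2 CPM (y axis) of the type I targets, the guanylate-binding genes and the immunity-related GTPase genes in each of the 10 libraries (x axis). GRMAC 4 and GRMAC 5 are high and GRflox 3 and GRflox 5 low for the first 2 groups; the immunity-related GTPase genes are low in GRflox 4 and GRMAC 3.

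Upstream of the members, interferon transcripts were at or near 0. Of 14 ligand genes in the table, 13 had no count in any library, and Ifng had 5 counts over all 10 libraries. A count of 3 in a library, the limit that a count of 0 allows, corresponds to 0.111 to 0.129 CPM. In any single library, levels of those 13 genes up to that limit are therefore not excluded. Since all 10 libraries had no count, the limit on their mean level is lower. All 6 receptor genes were tested and none differed even at an unadjusted p under 0.05 (median 0.08); the lowest p was that of Ifnar1 (55.5 and 58.5 CPM, 0.08 ± 0.05). Of 11 further JAK, STAT and IRF genes, Stat3 was higher (0.17 ± 0.07) and Irf3 lower (−0.18 ± 0.05, edgeR adjusted p = 0.129) at that unadjusted level. Each is 9.09% of the list, against 8.58% of all genes higher and 7.75% lower. Irf3 passed as lower in DESeq2 (adjusted p = 0.0393) and in the authors' deposited table (adjusted p = 0.0464).

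At an unadjusted p under 0.05, 8.58% of all genes were higher and 7.75% lower. Among 12 tested inhibitors of interferon signalling, Pias3 (0.27 ± 0.10) and Pias1 (0.18 ± 0.07) were higher at that level (16.7%). Of the same 12, 3 were lower (25%), led by the phosphatase gene Ptpn6 (−0.17 ± 0.06). Of 22 tested genes of nucleic acid sensing, 11 were positive and 11 negative, with a median of 0.01. At that level 4 were higher (18.2%), led by the DNA sensor gene Aim2 (0.74 ± 0.22), the Z-nucleic acid sensor gene Zbp1 (0.44 ± 0.16) and Ifi204 (0.30 ± 0.11). The 1 lower (4.55%) was Ticam1 (−0.30 ± 0.12). Further type I targets had a median of 0.04, with 28 of 49 positive, 8 higher (16.3%) and 2 lower (4.08%) at an unadjusted p under 0.05. Those with the lowest p were Mov10 (0.28 ± 0.08), Ddx60 (0.45 ± 0.14) and Trim30d (0.28 ± 0.09). Further interferon-gamma targets had a median of 0.35, with 13 of 14 positive and 6 higher (42.9%), and 5 of those 6 were the guanylate-binding genes above. No gene of these lists passed over all genes with edgeR when every library was used and the replicate number was not a term. Aim2, like Irf3 and the 3 Gbp genes, passed in DESeq2 (adjusted p = 0.0371), and in the authors' deposited table Aim2 had adjusted p = 0.0392.

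**Figure D5:**
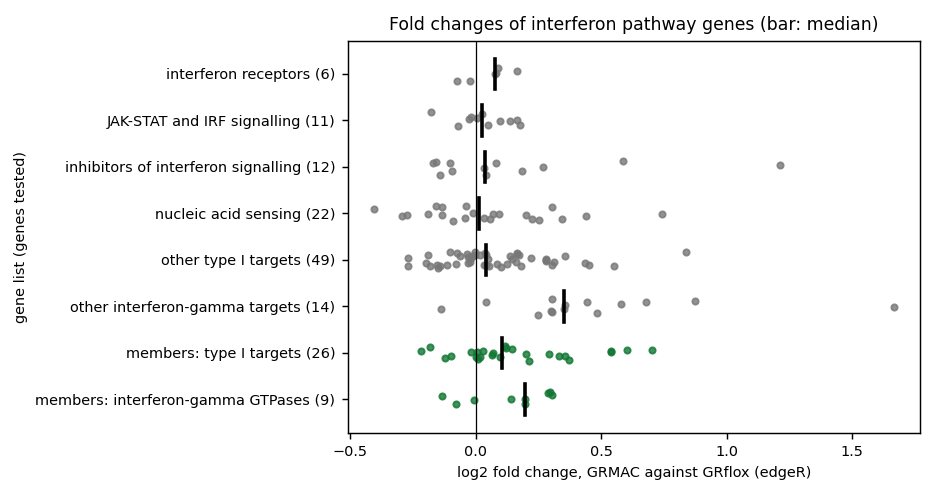
Log2 fold change (x axis) of each tested gene in 6 lists of the interferon pathway (grey) and in the 2 classes of members (green), with a bar at the median; the number of genes stands beside each name. The median of the further interferon-gamma targets is 0.35, while those of the receptor, signalling, inhibitor, sensing and further type I lists lie between 0.01 and 0.08.

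Markers of cells that carry or produce interferon signals were read beside the members, with higher and lower again meaning an unadjusted p under 0.05, which 8.58% and 7.75% of all genes met. T and NK cell markers, which include the main sources of interferon-gamma, were at a summed level of 6.04 to 7.30 CPM in GRflox and 4.77 to 7.73 CPM in GRMAC, and 5 of 15 passed the filter, none at an unadjusted p under 0.05 (lowest for Cd247, −0.52 ± 0.30). Plasmacytoid dendritic cell markers summed to 20.2 to 23.1 and 18.9 to 22.3 CPM, with 5 of 9 tested, none at an unadjusted p under 0.05 (lowest for Siglech, −0.45 ± 0.28), and 2 of the 5 positive. Tcf4 made up most of that sum, with means of 14.0 CPM in GRflox and 14.4 CPM in GRMAC, while Siglech was at 0.86 and 0.62 CPM. Kupffer cell markers summed to 601 to 789 and 692 to 821 CPM, and 10 of 15 tested were positive. Slc40a1 was the largest part of that sum, with means of 180 CPM in GRflox and 229 CPM in GRMAC. The 3 higher were Cd5l (0.55 ± 0.13), Folr2 (0.41 ± 0.14) and Slc40a1 (0.35 ± 0.13). The 2 lower were Cd163 (−3.22 ± 0.19), past the threshold with edgeR, and Nr1h3 (−0.16 ± 0.05). Cd5l and Nr1h3 passed in DESeq2 (adjusted p = 0.0057 and 0.0153). Monocyte and recruited macrophage markers summed to 7.61 to 9.63 and 9.29 to 11.3 CPM, with 6 of 10 tested. Of those 6, 3 were higher, led by Fcgr1 (0.72 ± 0.20), and 1 was lower, Itgam (−0.52 ± 0.21). Fcgr1 is not specific to monocytes, and Ccr2 was low, with means of 0.61 CPM in GRflox and 0.95 CPM in GRMAC. B cell markers summed to 5.07 to 6.995 and 6.43 to 9.18 CPM, with 3 of 6 tested higher. Genes listed as endothelial markers summed to 329.8 to 377 and 253 to 410.3 CPM, and 5 of the 13 were negative. The 2 higher were Clec1b (0.37 ± 0.13) and Stab2 (0.23 ± 0.08). Clec1b is not specific to endothelium, so its value is not assigned to a cell type here. Neutrophil markers summed to 2.63 to 4.96 and 3.25 to 6.15 CPM, with 1 of 9 tested (Csf3r, 0.06 ± 0.20). The part of any of these cells in the members' values was not tested.

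Base composition was also set beside the members, because fold changes varied with it across all genes. The median GC content was 47.5% over the transcripts of 34 members and 50.5% over those of all tested genes. Between 45 and 50% GC, 14 members had a median log2 fold change of 0.10 and all 3238 genes one of 0.01. Between 35 and 45% GC, 8 members had 0.19 and all genes 0.06, and between 50 and 55% GC, 9 members had 0.01 and all genes −0.01. Between 55 and 65% GC, 3 members had 0.14 and all genes −0.05. The members' median was above that of all genes in each of the 4 bands, and the part of GC content in the members' values was not tested.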

How the data were processed

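Reads of whole-liver polyadenylated RNA were counted per gene by the authors, who deposited whole-number counts in 10 columns, with a RefSeq accession and a symbol for each gene. HISAT2 2.1.0, DESeq2 1.24.0 and the build mm10 are named in the submitters' processing notes. The counting program, the annotation, and the treatment of strand and introns are not given in the sources used here. Columns were matched to sample titles by genotype and number. The authors' deposited comparison gives log2 fold changes and adjusted p-values, per the file headers. Its 10 columns of values per library were not used.

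Genes were filtered with filterByExpr (edgeR 4.0.16, R 4.3.3), which left 12558 of 19764 genes and removed 0.0348% of all counted reads. After TMM scaling, the genotypes were compared by the quasi-likelihood test with robust estimation and genotype as the only term. Each standard error is the fold change over the root of its F. Log2 CPM used a prior count of 2. Single members were also compared by a two-sided exact permutation test, whose smallest p is 0.00794. Levels per kilobase used the length of the GENCODE transcript matched by RefSeq accession and assume that exons were counted. No member's span overlapped that of another gene in the table. Coordinates count the first base as 1.

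Members given by library were those past the threshold, the 6 type I targets and 4 GTPase genes with the lowest p, Irf1, and the member with the highest mean CPM of each class. Of each further pathway list up to 3 genes with an unadjusted p under 0.05 were named, and otherwise the one with the lowest p; for marker lists, the one with the lowest p. Ifng, Tcf4, Ticam1, Stab2, Cd5l, Folr2, Slc40a1, Nr1h3, Itgam, Ccr2 and the Oas genes outside the members were named after their values were seen. Some items are not reported here. The members and lists were chosen with earlier results of these data known. The scripts were tested on simulated data. Alternatives were DESeq2 1.42.0, limma-voom (limma 3.58.1), edgeR with the robust option off, RLE or no scaling, a looser and a stricter filter, a replicate block, each library left out in turn, and Irf1 counted as a type I target.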

Additional observations from a re-analysis of the deposited data

Results flagged for a closer look

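In each genotype, the level of every member and the mean centred level of both classes were examined for 1 library far from the other 4. Of 76 such groups of 5 values, 6 were picked out, and chance gives about 1 in 20. GRflox 4 was low for Stat2 (99.5 CPM, others 112 to 116) and for Iigp1 (259 CPM, others 299.6 to 314). GRMAC 4 was high for Mx1 (3.11 CPM, others 1.71 to 2.07) and for Gbp2 (3.69 CPM, others 2.34 to 2.63). Gbp6 was low in GRflox 3 (2.93 CPM, others 4.43 to 4.99) and in GRMAC 2 (4.77 CPM, others 5.39 to 5.56). Without GRflox 4 the log2 fold change of Stat2 was −0.26 and that of Iigp1 0.15; without GRMAC 4 that of Mx1 was 0.53 and that of Gbp2 0.17; and without GRflox 3 that of Gbp6 was 0.18.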

How the results depend on the processing

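No member passed under any edgeR or limma-voom alternative, and 3 passed, as higher, with DESeq2. The count of members at an unadjusted p under 0.05 was 5 to 8 for higher ones with 1 library left out, and for lower ones 1 to 3; without a filter and with the replicate block it was 2 for lower ones. Over all genes, 22 calls became 447 with DESeq2, 34 without a filter, 8 with limma-voom, 8 without robust estimation, 81 with the replicate block and 5 (without GRflox 3 or GRflox 5) to 47 (without GRMAC 5) with 1 library left out; the cause was not tested. The medians of both classes moved from their main values by less than the SD of the class score between libraries (0.133 for type I, 0.103 for GTPase genes) in every alternative. For type I that SD is larger than the median itself (0.105), so this does not show a stable median. Without GRMAC 5 the type I median was 0.040. Same-numbered libraries were not taken as pairs: 2 of 5 correlations of their deviations exceeded 0.1, and 2 libraries of each genotype correlated best with their own number. With the block, no member passed, and outside the members Gbp11 (adjusted p = 0.0265, edgeR) and the Kupffer cell marker Cd5l (adjusted p = 0.0149, edgeR) did, which had not passed without it.

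Of the 36 members, 28 kept the sign of their fold change throughout. The other 8 lay near 0: Cmpk2 turned to 0.019 with library totals only, 0.0042 with the stricter filter, 0.012 with limma-voom and 0.0083 with the block, and Ifih1 (0.00060) and Irgm2 (0.016) turned with library totals only. With 1 library left out, fold changes spanned −0.088 to 0.077 for Cmpk2, −0.064 to 0.018 for Ifih1, −0.042 to 0.065 for Irgm2, −0.076 to 0.070 for Dhx58, −0.033 to 0.071 for Usp18, −0.10 to 0.12 for Ifit1, −0.047 to 0.086 for Xaf1, −0.038 to 0.16 for Rtp4 and, outside the members, −0.14 to 0.16 for Csf3r. For 26 of 36 members, those 8 included, leaving out some library brought the fold change over 1.5 times closer to 0 or past it; the other 10 were Irf7, Stat2, Irf1, Ifit2, Ifit3, Oasl2, Mx1, Ifi27l2a, Iigp1 and Irgm1. Members with a mean under 5 CPM rest on few counts, which limits their precision. They were Mx1, Gbp5, Ifi44, Gbp2, Isg15, Ifi27l2a, Ifit2, Oas1a, Ifit1 and Gbp6.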

Other observations

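Members of the SOCS family, which restrain cytokine receptors that signal through JAK kinases, had wide spreads between libraries. Cish had a mean of 17.7 ± 8.58 CPM for GRflox and 40.9 ± 22.7 CPM for GRMAC (SD, n = 5; log2 fold change 1.21 ± 0.56, adjusted p = 0.33 with edgeR), and Socs3 at 11.5 ± 3.25 and 17.2 ± 6.87 CPM (0.59 ± 0.32, adjusted p = 0.402 with edgeR). Socs1, the inhibitor that interferons induce, did not pass the filter and had between 4 and 17 counts in a library. These 3 genes were chosen after their values were seen.

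Members with an ISRE core in their window had a median log2 fold change of 0.07 (16 genes), those with a window and no ISRE core one of 0.22 (10 genes), and those with no window in the table one of 0.16 (10 genes).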
